A study of Mus musculus with 6 samples.

Results

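Broad peaks of open chromatin were defined as all peaks of the deposited table whose end minus start was 2000 bp or more. This rule chose 1885 of 43020 peaks (4.38%), whatever their score, spacing or signal, and the other 41135 peaks were used for comparison. The table comes from ATAC-seq of mouse colon cancer organoids, an assay in which the Tn5 transposase inserts sequencing adapters into open chromatin, so that more accessible regions yield more reads. All 6 libraries carry the genotype label AKP. Naive organoids, which have no recipient mouse in the labels, gave 3 libraries, and the primary tumour group held 3 libraries of organoids grown from tumours that such organoids had formed in the colon of immunocompetent C57Bl6 mice, and kept in culture until no other cells remained. The labels do not say whether replicates of a group came from separate cultures, so p-values measure the spread between these libraries.

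Most open regions of a mammalian genome are narrow, about the footprint of a nucleosome-free promoter or enhancer. Wider stretches are known from promoters of strongly transcribed genes, from enhancers packed side by side, and from places where a peak caller joins neighbouring summits into 1 interval. Long open domains are often found near genes that define a cell type. A low, even signal spread over a long stretch can also be called as 1 wide peak. Regions were not assigned to genes here, because the gene annotation used here belongs to another genome build than the mm9 coordinates of the table. For the same reason the labelled cell type was not checked against marker genes, and no region sequence was read.

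Broad peaks covered 4624 kb, which was 12.3% of all bases in peaks. Their median width was 2330 bp, with quartiles at 2135 and 2639 bp and a maximum of 6777 bp. The set was therefore dominated by peaks just past the limit, with 787 peaks of up to 2249 bp, a further 457 of up to 2499 bp, 435 of up to 2999 bp and 187 of up to 3991 bp, and 19 of 4000 bp or more. Peaks at the limit had no common strength. Just inside it, at 2000 bp, the mean signal was 29.1 CPM (counts relative to the scaled library total) at chr16:33379655-33381655, 99.5 CPM at chr19:32830292-32832292 and 43.9 CPM at chr3:151833253-151835253. Just outside it, at 1999 bp, it was 28.5 CPM at chr10:77689567-77691566, 18.5 CPM at chr17:88249410-88251409 and 11.02 CPM at chr3:108658158-108660157.

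Broad peaks were found on every chromosome with peaks except Y. They made up 3.72% of the peaks on chromosome 18 and 6.27% of those on chromosome 19, the lowest and highest shares among the autosomes and X. Chromosome 11 held 161 of them, more than any other. Another peak of any width lay within 20 kb of 82.2% of broad peaks and of 75.9% of other peaks, at median distances of 7113 and 7338 bp. Another broad peak within 20 kb was found for 222 broad peaks (11.8%), where broad peaks were 4.38% of all peaks. The median distance to the nearest broad peak was 182600 bp. What other placements of these peaks would give was not computed.

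Broad peaks held more reads than other tested peaks, but not more reads per kb. Width and signal come from the same reads, so this comparison is a description without a test. The median broad peak had 45.5, 43.2 and 45.7 CPM in naive replicates 1, 2 and 3, and 46.5, 46.0 and 46.5 CPM in primary tumour replicates 1, 2 and 3. The median of other tested peaks lay between 13.96 and 15.7 CPM in the same libraries. Per kb of width, broad peaks had a median of 18.3 to 19.7 CPM and other tested peaks 18.9 to 20.1 CPM. In each of the 6 libraries the broad value was slightly lower. The filter on low counts kept all broad peaks but 83.4% of the others, and its part in this small difference was not tested. The scale of the authors' peak score is not stated in the sources used here. The score had a median of 29.5 for broad and 21.4 for other peaks. Its upper end differed, with a maximum of 471 among broad peaks and 5097 among the others. The larger read number of broad peaks thus came with their larger width.

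**Figure D1:**
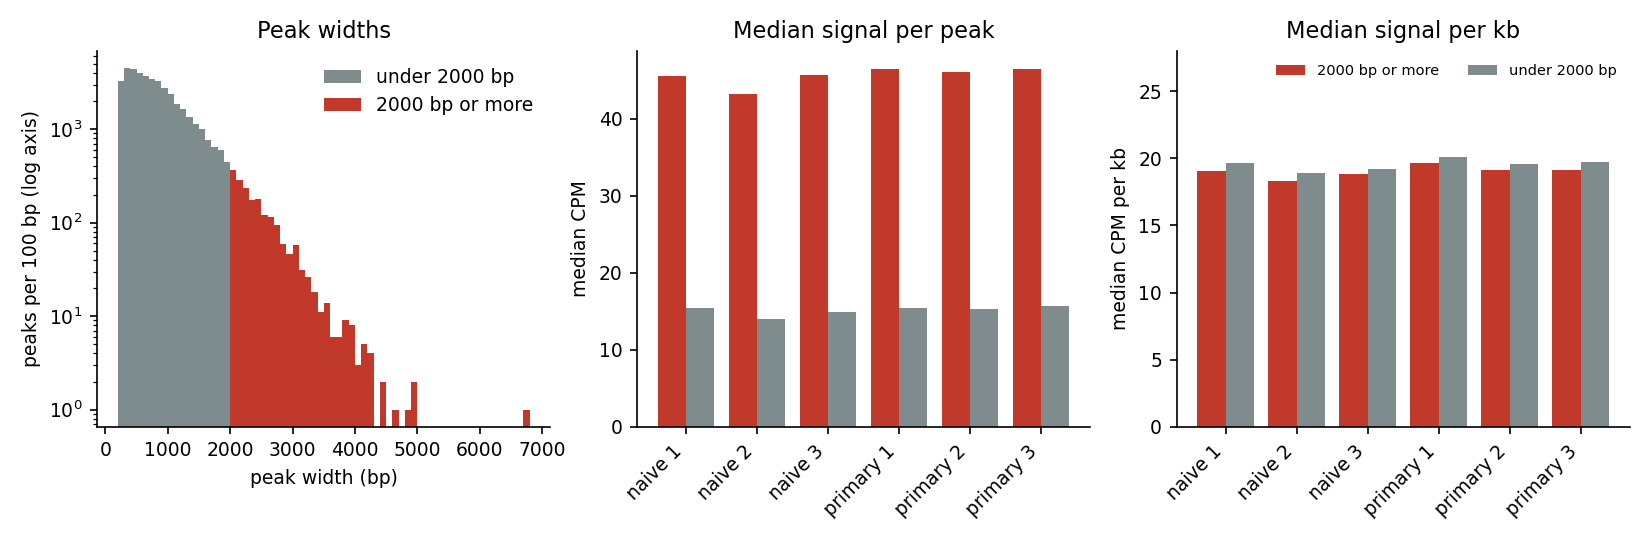
Left, number of peaks per 100 bp of width on a log axis, with peaks of 2000 bp or more in red. Middle and right, median CPM per peak and median CPM per kb of width in each of the 6 libraries for broad peaks (red) and other tested peaks (grey); the red bars are about 45 CPM against 15 CPM per peak, and both colours lie between 18.3 and 20.1 CPM per kb.

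The strongest and the widest broad peaks were open in both groups. The widest peak of the table, peak 14837 at chr11:86389126-86395903 (6777 bp), was also the strongest broad peak. It had 598, 637 and 489.8 CPM in naive and 569.8, 466 and 464 CPM in primary tumour libraries, and the groups overlapped. Its log2 fold change was -0.20 (SE 0.16, edgeR adjusted p = 0.467). The next in strength was peak 34912 at chr15:101846543-101848773, with the highest signal per kb of all broad peaks (237 CPM per kb) and a log2 fold change of -0.23 (edgeR adjusted p = 0.363). It lay 8836 bp from another of the 5 strongest, peak 34910 at chr15:101834261-101837707, with a log2 fold change of -0.36 (edgeR adjusted p = 0.171). The other members of the strongest 5, peak 13840 at chr11:74643404-74647218 and peak 102619 at chr9:56923169-56925254, had log2 fold changes of -0.37 and -0.46 (edgeR adjusted p = 0.130 and 0.0716). All 5 values were negative under this scaling, and none passed the test. With abundance-trended offsets, which remove any dependence of the library ratios on peak strength, they ran from -0.17 to 0.12.

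Wide peaks did not form a uniform class. Of the 5 widest, peak 32525 at chr15:74761370-74766035 (4665 bp) alone passed the test. It had 131, 128 and 132 CPM in naive and 189.9, 229 and 194 CPM in primary tumour libraries, so every primary tumour value lay above every naive value (log2 fold change 0.65, SE 0.18, edgeR adjusted p = 0.0144). The call was lost without naive replicate 1, naive replicate 3 or primary tumour replicate 2, with edgeR adjusted p-values of 0.0595, 0.0515 and 0.107. Peaks 97618 at chr8:87502336-87507208 (4872 bp) and 65093 at chr4:55543045-55547991 (4946 bp) had log2 fold changes of -0.08 and -0.43 (edgeR adjusted p = 0.812 and 0.106). The second widest, peak 59034 at chr3:6297501-6302495 (4994 bp), was of another kind. It had a score of 5.83, close to the lowest in the table, and 9.32 CPM per kb against 79.3 CPM per kb in the widest peak. Its libraries disagreed within each group, with 79.8, 24.1 and 55.5 CPM in naive replicates 1 to 3 and 15.97, 42.9 and 61.2 CPM in primary tumour replicates 1 to 3.

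The design asks which regions opened or closed between naive organoids and the lines derived from tumours, and broad peaks were read from a fit over all peaks. All 1885 broad peaks passed the filter on low counts, against 83.4% of the others. Of these, 200 (10.6%) had a higher and 121 (6.42%) a lower signal in the lines from tumours at an adjusted p under 0.05 (edgeR). Over all 36179 tested peaks, 14.4% were called, 8% higher and 6.4% lower. Broad peaks were called at 17.0% and other peaks at 14.3%, which is a small difference that was not tested. In bulk chromatin, fewer cells with a region open and a region less open in each cell cannot be told apart. DNA copy number was not measured, so a call is a difference in scaled reads. Single lines were also shifted over all tested peaks of some chromosomes, as given below. Life in the mouse, the return to culture and passaging came together in all 3 lines, so these cannot be told apart either.

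The counts depended on single libraries. Naive replicate 2 had the most counts in peaks and is called the deepest library here. Without it, 105 broad peaks were called higher and 54 lower, and 157 of the 321 calls with all libraries (48.9%) were kept. Calls over all tested peaks were also fewer in that fit, at 5.82% (3.59% higher and 2.23% lower). Leaving out primary tumour replicate 2 left 75 called lower, and leaving out replicate 3 left 68, where 4.2% and 4.22% of all tested peaks were called lower. Without both of the deepest libraries, naive replicate 2 and primary tumour replicate 1, the counts were 137 and 74, next to 5.03% and 3.49% of all tested peaks. No called broad peak changed sign in any of these fits.

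Estimated fold changes of broad peaks were smaller in size than those of other peaks. The median absolute log2 fold change was 0.33 against 0.45 over all tested peaks of each class, called or not. With at least 20 counts in at least 3 libraries, these medians were 0.32 and 0.41. Such medians also grow with the error of the estimates, so smaller true changes in broad peaks were not shown. The median log2 fold change among broad peaks called higher was 1.21, against 1.70 among other peaks called higher, and among those called lower it was -0.85 against -1.29. Smaller folds can pass the test in broad peaks, whose median SE was 0.25 against 0.40 on the log2 scale, so the medians of called peaks differ in part by construction. A difference of 2-fold or more was reached by 136 of the 200 higher and 42 of the 121 lower broad peaks. Among all tested peaks it was reached by 2569 of the 2893 called higher and 1610 of the 2317 called lower. These were 7.1% and 4.45% of all 36179 tested peaks, where the 136 and 42 were out of 1885 tested broad peaks. A difference of 4-fold or more was reached by 19 higher and 0 lower of the 1885 broad peaks, and by 899 higher and 365 lower of all 36179 tested peaks. In a test against a fold change of 2, edgeR called 25 broad peaks higher (1.33%) and 1 lower (0.053%), next to 1.41% and 0.575% of all tested peaks. In that test 93 broad peaks and 3053 of all tested peaks had an unadjusted p under 0.05. Over all broad peaks, called or not, the median log2 fold change was -0.010, beside -0.006 over all tested peaks. The 2 groups of libraries were fully separated at 304 broad peaks with the tumour lines on top (16.1%) and at 302 with the naive organoids on top (16.0%), next to 15.5% and 15.3% of all tested peaks.

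**Figure D2:**
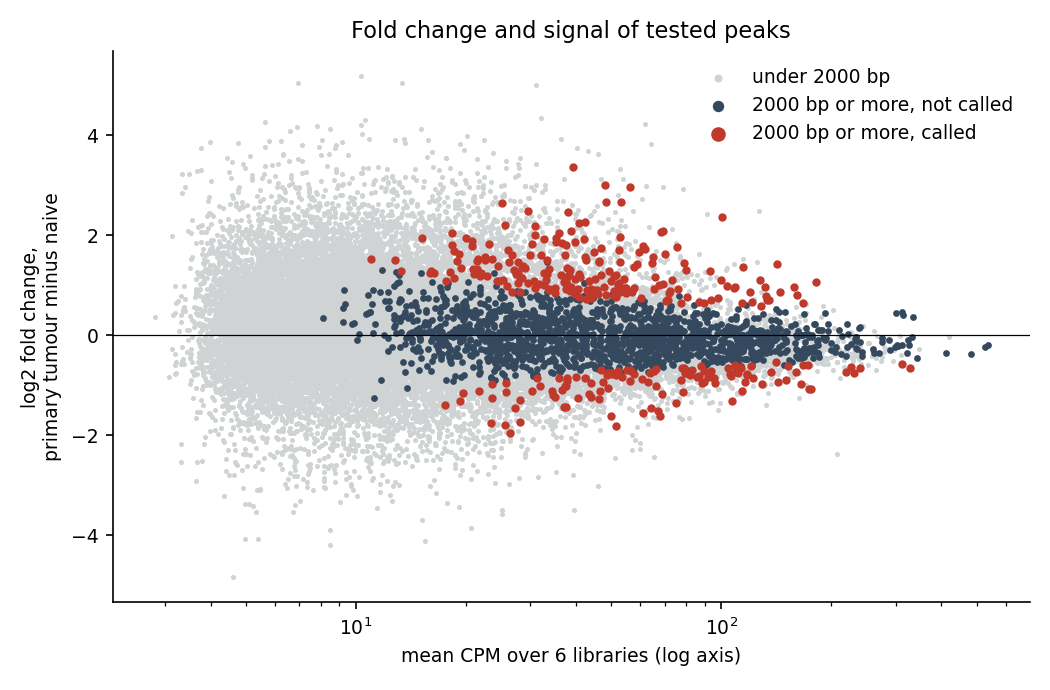
Log2 fold change of primary tumour minus naive (y axis) against mean CPM on a log axis (x axis) for all tested peaks. Broad peaks (dark blue, red where called) sit in the right part of the cloud and span log2 fold changes from -1.95 to 3.37, while other peaks (grey) reach from -4.84 to 5.19.

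The broad peak with the highest fold change was peak 104428 at chr9:98398412-98400451. It had 6.01, 6.43 and 8.11 CPM in naive replicates 1 to 3 and 63.9, 87.8 and 63.6 CPM in primary tumour replicates 1 to 3. The groups did not overlap and replicates were close, and the log2 fold change was 3.37 (SE 0.29, edgeR adjusted p = 5.16e-08). The nearest tested peak, 4343 bp away, was also called higher (log2 fold change 1.49, edgeR adjusted p = 0.00652). Peak 25 at chr1:4660579-4662744 had 11.2, 8.64 and 12.8 CPM in naive and 75.3, 89.96 and 90.1 CPM in primary tumour libraries. Here too the groups lay far apart, 85.1 ± 8.51 against 10.9 ± 2.10 CPM (SD, n = 3 each), an 8.02-fold difference (edgeR adjusted p = 5.38e-08).

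In several gained regions the 3 lines reached different heights. At peak 58229, chr2:169414300-169416395, primary tumour replicates 1 to 3 had 54.8, 165 and 77.3 CPM, and the naive libraries 17.2, 8.27 and 14.9 CPM. Its log2 fold change of 2.97 (edgeR adjusted p = 0.000129) was 2.38 without primary tumour replicate 2, the highest line. That line was also highest at peak 21178, chr12:88165153-88168250, with 118, 233 and 154 CPM against 33.5, 33.3 and 31.2 CPM in naive organoids (log2 fold change 2.36, edgeR adjusted p = 5.79e-07). Primary tumour replicate 1 was the highest line at peak 37499, chr16:57471958-57474625, with 128, 72.0 and 75.4 CPM against 14.6, 15.4 and 13.2 CPM (log2 fold change 2.67, edgeR adjusted p = 5.33e-07), and at peak 46186, chr18:64235192-64237980, with 90.4, 52.9 and 65.5 CPM against 18.9, 9.74 and 17.5 CPM (log2 fold change 2.27). Over all tested peaks of chromosome 18, that line had a median log2 ratio of 0.27 to the naive mean. At peak 7187, chr10:43158239-43161506, the widest of the 10 at 3267 bp, replicate 3 led with 104 CPM, next to 75.3 and 71.4 CPM in replicates 1 and 2 and 12.0, 11.2 and 16.7 CPM in naive organoids (log2 fold change 2.66).

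In the other 3 of the 10 highest, naive replicate 2 was the lowest naive library, as it also was at peaks 25, 58229, 7187 and 46186. Peak 27894 at chr14:41830633-41833008 had 9.44, 3.49 and 9.40 CPM in naive replicates 1 to 3, peak 97363 at chr8:83460393-83463316 had 10.3, 4.04 and 14.1 CPM, and peak 73729 at chr5:73758084-73760431 had 13.7, 6.06 and 17.1 CPM. Their primary tumour values lay between 38.6 and 70.2 CPM, above every naive library. Log2 fold changes were 2.65, 2.50 and 2.47, and without naive replicate 2 they were 2.17, 1.98 and 2.01, all still called (highest edgeR adjusted p over the left-out libraries 0.00322).

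**Figure D3:**
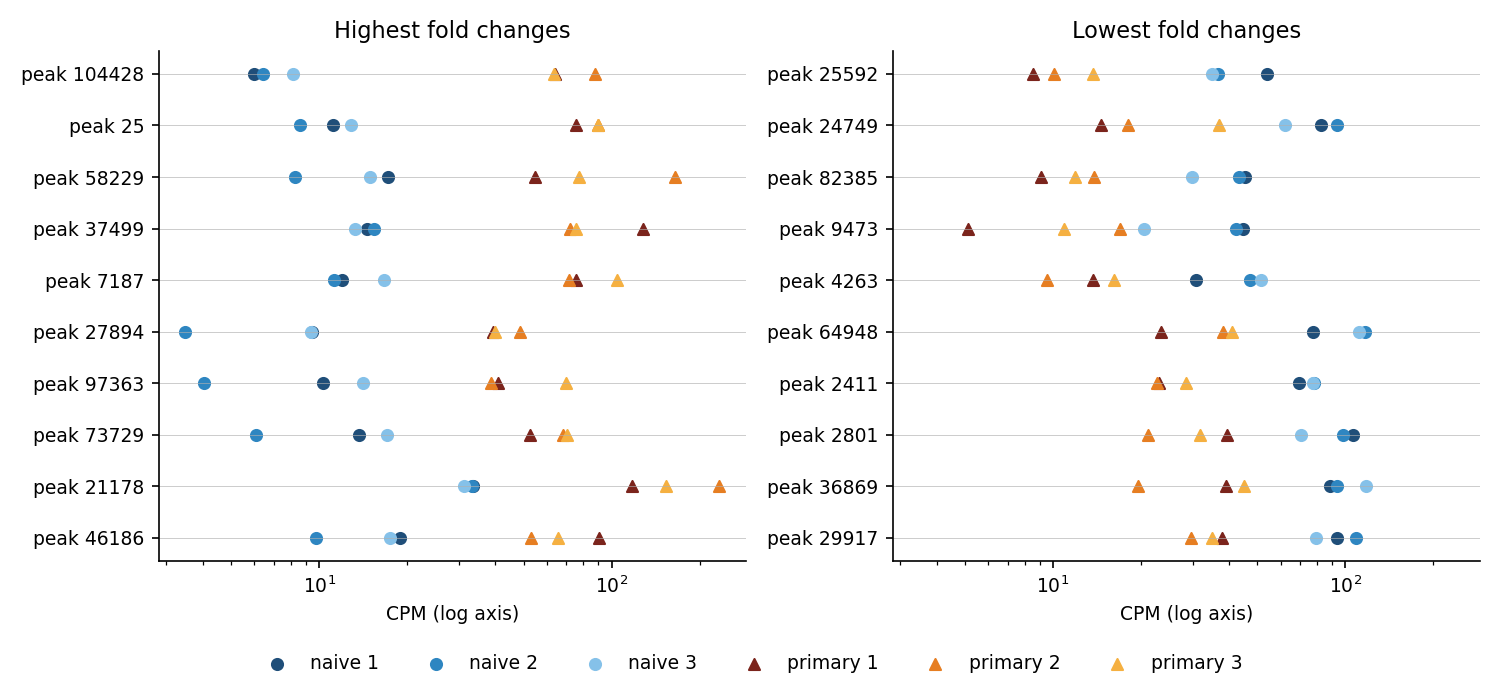
CPM on a log axis (x axis) in each library for the 10 broad peaks with the highest (left) and the 10 with the lowest (right) log2 fold changes among called peaks whose groups do not overlap. Circles are naive and triangles primary tumour libraries; the groups stand further apart on the left (log2 fold changes 2.27 to 3.37) than on the right (-1.95 to -1.45).

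The 10 broad regions with the lowest fold changes still had reads in every tumour-derived line. The level outside peaks was not measured, so these reads were not set against background. The lowest fold change was found at peak 25592, chr13:94315885-94318009, with 54.1, 36.7 and 35.0 CPM in naive replicates 1 to 3 and 8.56, 10.1 and 13.8 CPM in primary tumour replicates 1 to 3 (log2 fold change -1.95, SE 0.32, edgeR adjusted p = 0.000199). Peak 24749, on the same chromosome at chr13:55551213-55553688, had 82.4, 93.9 and 62.4 CPM against 14.5, 17.99 and 37.0 CPM (log2 fold change -1.80, edgeR adjusted p = 0.000225). Primary tumour replicate 2 had a median log2 ratio to the naive mean of -0.69 over all tested peaks of chromosome 13, and replicates 1 and 3 had -0.08 and -0.17. At both peaks replicate 1 had the lowest value. The part of the chromosome-wide shift in these fold changes was not tested. Peak 64948 at chr4:47510806-47513285, with 77.2, 117 and 111 CPM in naive and 23.4, 38.1 and 40.8 CPM in primary tumour libraries, had the highest score of the 10 (log2 fold change -1.61, edgeR adjusted p = 6.84e-05). Its lowest line, primary tumour replicate 1, had a median log2 ratio of -0.22 over all tested peaks of chromosome 4.

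Chromosome 1 held 3 of the 10 lowest. Peak 2411 at chr1:89787417-89789936 had the closest replicates of these 10, with 69.5, 77.9 and 77.7 CPM in naive and 23.1, 22.8 and 28.5 CPM in primary tumour libraries (log2 fold change -1.61, SE 0.24, edgeR adjusted p = 5.05e-05). Its nearest tested peak, 7468 bp away, fell by 1.49 on the log2 scale (edgeR adjusted p = 5.54e-05). Peak 2801 at chr1:93524749-93527090 had 106, 98.1 and 70.5 CPM against 39.4, 21.2 and 31.8 CPM, and peak 4263 at chr1:140425387-140427566 had 30.9, 47.2 and 51.2 CPM against 13.7, 9.53 and 16.1 CPM. Their log2 fold changes were -1.55 and -1.73 (edgeR adjusted p = 0.000135 and 0.000428), and the groups did not overlap at either.

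Among the other 4, peak 36869 at chr16:33776038-33778047 fell from 88.4, 93.3 and 118 CPM to 39.1, 19.6 and 45.1 CPM (log2 fold change -1.52), and its neighbour 4005 bp away was also called lower. Peak 29917 at chr14:100683716-100685855 fell from 93.5, 109 and 79.4 CPM to 37.9, 29.6 and 35.1 CPM (log2 fold change -1.45). Peaks 82385 at chr6:64677758-64680091 and 9473 at chr10:98852603-98854969 had low scores of 7.80 and 6.43. Peak 82385 had 45.5, 43.2 and 29.9 CPM against 9.13, 13.8 and 11.9 CPM (log2 fold change -1.78). Peak 9473 had 44.6, 42.3 and 20.5 CPM against 5.13, 16.9 and 10.9 CPM, and its log2 fold change of -1.75 (edgeR adjusted p = 0.00414) lost the call without naive replicate 2 (adjusted p = 0.0569, edgeR).

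Peaks next to called broad peaks were in part called in the same direction. Of 200 broad peaks called higher, 164 had a tested peak within 20 kb, and the nearest was called higher at 42 (25.6%) and lower at 5. Of 121 called lower, 103 had such a neighbour, which was called lower at 18 (17.5%) and higher at 2. Next to broad peaks that were not called, 7.36% of nearest neighbours were higher and 5.89% lower. Narrower peaks had the same pattern, with 29.7% of neighbours higher next to peaks called higher and 23.6% lower next to peaks called lower, so it was not shown to be particular to broad peaks.

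Scaling changed the balance of gains and losses in broad peaks. With 1 TMM factor per library, 62.3% of called broad peaks were higher, next to 55.5% of all calls. With abundance-trended offsets, 271 broad peaks were called higher and 84 lower, so that 76.3% were higher, while over all tested peaks 8.15% were called higher and 6.24% lower. Of the 321 broad peaks called with TMM, 86.6% were called with these offsets too, and none changed sign. The median log2 fold change of broad peaks was 0.10 with the offsets, and that of all tested peaks remained near 0 (-0.005). With total-count scaling 229 were called higher and 107 lower, and over all tested peaks 8.18% and 5.39%.

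Gains outnumbered losses among broad and among other peaks of most strengths. All tested peaks were ranked by mean signal into 5 bins of equal size, and the strongest bin held 1049 broad and 6187 other peaks. In that bin 9.72% of broad peaks were called higher and 8.67% lower, while other peaks were called higher at 5.69% and lower at 10.7%. In the next bin, with 561 broad peaks, the shares were 13.5% and 4.81% for broad and 10.1% and 9.15% for other peaks. In the middle bin, 20 of 238 broad peaks were called higher (8.40%) and 3 lower (1.26%), which made 9.66% called. Of the 6997 others there, 10.2% were called higher and 6.65% lower, which made 16.8%. With 10 bins in place of 5, the strongest bin alone had fewer broad peaks called higher (47, 7.06%) than lower (62, 9.31%). Other peaks of that bin were called higher at 3.86% and lower at 11.3%. With trended offsets, the shares in the strongest bin were 16.2% higher and 5.43% lower for broad peaks, and 9.12% and 7.63% for others. Peaks are not independent replicates, so these shares are a description.

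**Figure D4:**
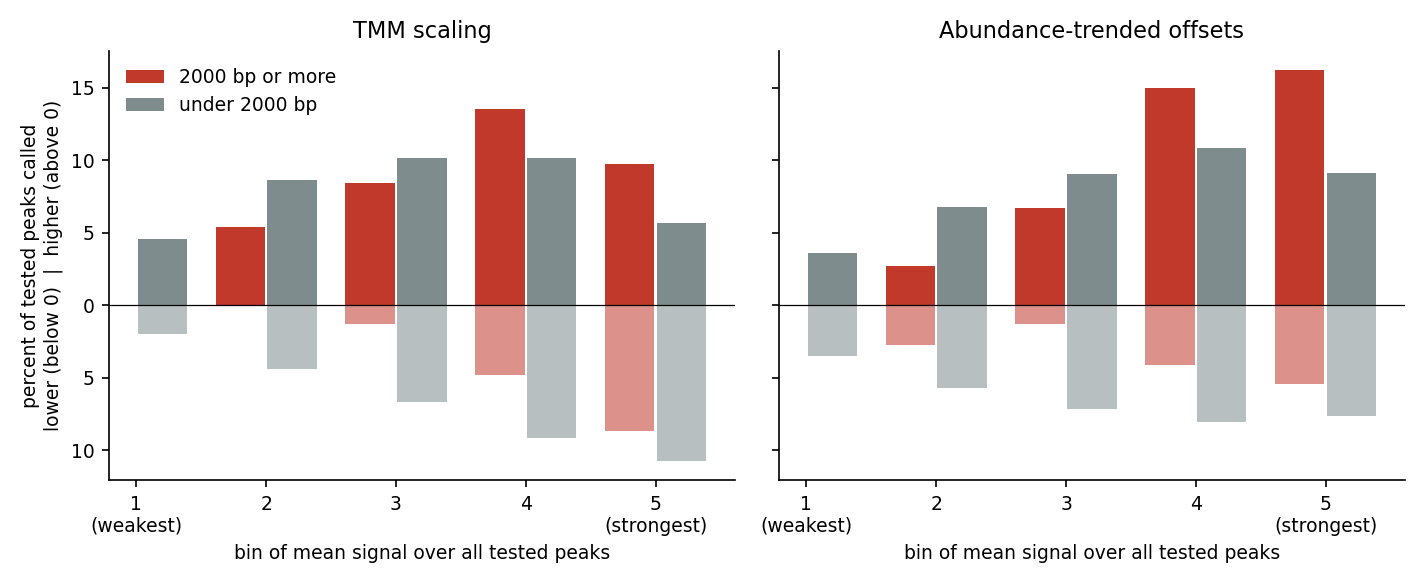
Percent of tested peaks called higher (above 0) and lower (below 0, paler) in 5 equal bins of mean signal, for broad (red) and other peaks (grey), with TMM scaling (left) and with abundance-trended offsets (right). The weakest bin holds no broad peak; in the strongest bin red bars above 0 reach 9.72% on the left and 16.2% on the right.

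The share of all counts that lay in broad peaks was nearly constant. It was 11.7%, 11.4% and 11.6% in naive replicates 1 to 3 and 11.6%, 11.8% and 11.8% in primary tumour replicates 1 to 3. The groups overlapped, and the means of 11.6% ± 0.181 and 11.7% ± 0.131 (SD, n = 3 each) differed by 0.166 percentage points (exact permutation test, 2-sided, p = 0.30). A design of 3 against 3 libraries cannot give a p below 0.10. This share does not depend on scaling between libraries.

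Replicates were closer in broad peaks than in others. The residual SD of log2(CPM + 1) around the 2 group means had a median of 0.292 in broad and 0.400 in other tested peaks, and the median SE of the log2 fold change was 0.25 against 0.40. More reads lay behind each broad value. In the library with the fewest reads, naive replicate 1, the median was 53 reads for broad and 18 for other tested peaks, and in naive replicate 2 it was 235 and 76. At matched signal the order was not uniform. In the strongest bin of signal the median SD was 0.231 for broad and 0.253 for other peaks, but in the middle bin it was 0.541 for broad and 0.412 for other peaks, and in the bin above that 0.374 and 0.327. Broad peaks of modest total signal thus had a larger median SD than narrow peaks of like signal. The bin below the middle held 37 broad peaks, with 0.576 against 0.498.

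That spread followed signal density and library. Broad peaks were split into 4 classes of equal size by CPM per kb, a split chosen after the data were seen. The lowest class (472 peaks, 3.79 to 11.1 CPM per kb) had a median score of 9.52 and a median SD of 0.515, and the highest (471 peaks, 32.7 to 237 CPM per kb) had 90.4 and 0.211. Widths hardly differed, with medians of 2371 and 2308 bp. In the lowest class, naive replicate 2 was the lowest naive library at 76.5% of peaks and primary tumour replicate 1 the lowest of its group at 59.7%. These are the deepest libraries of their groups, with 5987545 and 3594735 counts in peaks against 1185356 to 2350525 in the other 4. Reads outside peaks could not be counted, so the share of reads in peaks is not known for any library. Their median deviations from the group mean were -0.49 and -0.25, and those of the other 4 libraries lay between 0.07 and 0.32. In the highest class the same pair had 0.15 and 0.06.

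Other peaks of equal density showed the same order. In the range of the lowest class, narrower peaks had deviations of -0.40 in naive replicate 2 and -0.20 in primary tumour replicate 1, and a median SD of 0.570. In that of the highest class the pair had 0.18 and 0.08. The part of depth, or of the share of reads in peaks, in this pattern was not tested. At peak 78529, chr5:139373591-139376080, the most variable broad peak, the values were 51.5, 8.82 and 26.9 CPM in naive and 6.27, 28.6 and 35.1 CPM in primary tumour libraries. Peak 67091 at chr4:119942663-119945095 came next, with 30.0, 10.7 and 22.6 CPM and 6.27, 45.5 and 42.2 CPM. In both, naive replicate 2 and primary tumour replicate 1 were the lowest of their groups. At the other end, peak 14133 at chr11:77576498-77580421 had 114, 115 and 120.4 CPM and 114, 115 and 107 CPM, and peak 38250 at chr16:92684630-92688070 had 45.5, 42.4 and 44.8 CPM and 60.5, 60.3 and 62.6 CPM. The groups did not overlap at peak 38250, yet its log2 fold change of 0.47 did not pass (edgeR adjusted p = 0.165).

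**Figure D5:**
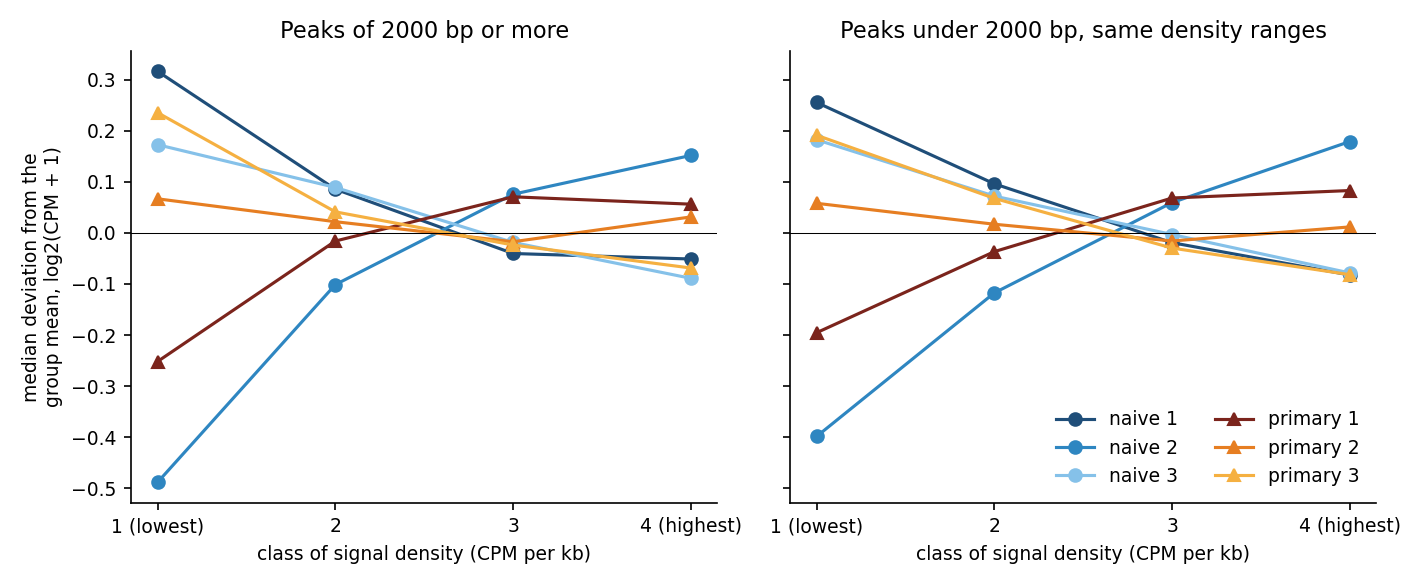
Median deviation of each library from its group mean in log2(CPM + 1) (y axis) over 4 classes of signal density (x axis), for broad peaks (left) and for other tested peaks in the same density ranges (right). Naive 2 and primary 1 rise from -0.49 and -0.25 in the lowest class to 0.15 and 0.06 in the highest on the left, and the right panel has the same order.

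Called shares also differed between the density classes. In the lowest class 45 broad peaks were called higher and 8 lower (11.2% called), in the next 77 and 29 (22.5%), then 48 and 39 (18.5%), and in the highest 30 and 45 (15.9%). At equal density, narrower peaks were called at 7.26%, 12.99%, 18.5% and 16.8% in the same order. They too turned from more gains to more losses, with 396 higher and 71 lower in the lowest class and 570 higher and 999 lower in the highest. Without the lowest class, 155 broad peaks were called higher and 113 lower.

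On chromosomes 5 and 13, where single lines stood apart, more broad peaks were called lower than higher. On chromosome 5, 5 of 133 broad peaks were called higher and 16 lower, and on chromosome 13, 3 of 87 were higher and 12 lower. The shares called, 15.8% and 17.2%, were near the 14.5% and 18.4% of all tested peaks on these chromosomes. How calls over all tested peaks there split by direction was not counted, so more losses than gains were not shown to be particular to broad peaks. The median log2 ratio of broad peaks to the naive mean was -0.54, -0.14 and 0.03 in primary tumour replicates 1 to 3 on chromosome 5, and -0.04, -0.74 and -0.18 on chromosome 13. Over all tested peaks, replicate 1 had -0.34 on chromosome 5 and replicate 2 had -0.69 on chromosome 13. Without primary tumour replicate 1, 10 broad peaks on chromosome 5 were called lower and 7 higher, and their median log2 fold change was -0.02 in place of -0.20. Without primary tumour replicate 2, 7 broad peaks on chromosome 13 were called lower and 2 higher, with a median log2 fold change of -0.15 in place of -0.30. Losses over all broad peaks fell from 121 to 75 in the same fit, so chromosome 13 held 9.92% of them with all libraries and 9.33% without that line. Outside chromosomes 4, 5, 13, 18 and 19, 160 of 1396 broad peaks were called higher and 89 lower, next to 8.36% and 6.76% of all tested peaks there. On chromosome 19, 16 of 85 were higher and 4 lower (23.5% called, against 12.3% of all tested peaks there). Primary tumour replicate 1 had a median log2 ratio of 0.25 over these broad peaks and 0.24 over all tested peaks of chromosome 19.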

How the data were processed

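For 6 ATAC-seq libraries the authors deposited raw read counts over peaks in 1 table. The submitters' processing notes name the build mm9 and, without versions or roles, bedtools, MACS2, SAMtools, Picard and Bowtie. Per the file itself, peak names describe 1 shared set over all samples. Read shift, duplicate handling and the joining of summits, which can widen peaks, are not stated in the labels or the file. Coordinates are as deposited.

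Analysis used edgeR 4.0.16 and limma 3.58.1 under R 4.3.3. Peaks passing filterByExpr (36179) were scaled by TMM (factors 0.922 to 1.05) and tested, primary tumour against naive, with the robust quasi-likelihood F test and Benjamini-Hochberg adjustment over all tested peaks. The code was checked on simulated counts. CPM are TMM-scaled, and SDs use log2(CPM + 1).

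Regions named were the 10 highest and 10 lowest fold changes among called broad peaks whose groups do not overlap, the 5 widest, the 5 strongest, the 2 most and 2 least variable, and 3 on each side of 2000 bp. Members, lists and tests were chosen with earlier results of these data known.

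Alternatives were total-count, DESeq2 and trended (loess, span 0.3) scaling, the DESeq2 1.42.0 Wald test, other filters, a replicate block, left-out libraries or chromosomes, a fold test, other widths, bins and pseudocount. Density classes and leaving out both deepest libraries were added after the data were seen.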

Additional observations from a re-analysis of the deposited data

How the results depend on the processing

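With 1 library left out, broad peaks called higher ran from 105 to 201 and those called lower from 54 to 118; without both of the deepest libraries 74 were lower. A test against a fold of 2 called 25 and 1, a width limit of 1500 bp gave 511 and 362, and one of 3000 bp gave 24 and 11, since these change the threshold or the number of peaks. The 24 and 11 were out of 187 peaks of 3000 to 3991 bp and 19 wider ones, next to 8% and 6.4% of all tested peaks. The number of peaks at 1500 bp is not given here. The fit with a replicate block called 158 higher and 91 lower, next to 5.45% and 4.33% of all tested peaks. Libraries with equal numbers did not deviate together (r over peaks -0.24, -0.11 and 0.0047), so the numbers were not used as pairs. Each library had its highest r with another number. Other settings kept both counts within 1.5 times.

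The median log2 fold change of broad peaks, near 0 throughout, was 0.10 with trended offsets, 0.045 with total-count scaling, 0.024 with at least 20 counts in at least 3 libraries, -0.059 without the lowest-density class, and -0.040 to 0.016 with 1 library left out. The median SD of broad minus other peaks was -0.108, and it was -0.136 with no filter, -0.068 with the stricter filter, -0.120 without chromosomes 4, 5, 13, 18 and 19, -0.088 at 1500 bp, -0.128 at 3000 bp, -0.040 with log2(CPM + 5), -0.147 without the lowest-density class, and -0.119 to -0.105 with 1 library left out. The share of broad peaks called in the strongest bin was 18.4%, and 21.6% with trended offsets. The causes were not tested. Of the 20 called peaks named by fold, 19 kept their call in every alternative read for them. These were the other scalings, the DESeq2 Wald test, the replicate block and the left-out libraries. Peak 9473 lost its call without naive replicate 2 (log2 fold change -1.57). It was also lost without both deepest libraries (log2 fold change -1.16 in place of -1.75, edgeR adjusted p = 0.0902). The test against a fold of 2 was not among these alternatives. That test called 1 broad peak lower, peak 25592, so the other peaks named as lowest lost their call there. Which of the highest kept theirs is not given here. The 20 were chosen for large folds in the same libraries.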

Other observations

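Among 118 pairs of consecutive broad peaks within 20 kb of each other, 5 had both members called higher and 1 had both called lower. Opposite calls were found in 0 pairs, 30 had 1 member called and 82 none. No such count was made for pairs of other peaks. With 10.6% of broad peaks called higher and 6.42% lower, few opposite pairs can arise, so the 0 does not show that pairs agree. The pair with the highest folds, peaks 34584 and 34585, lay 4397 bp apart, with log2 fold changes of 2.05 and 1.48. The pair called lower, peaks 15440 and 15441, lay 8146 bp apart, with -0.67 and -0.76.

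On chromosome X, 5 of 42 broad peaks (11.9%) were called by edgeR, all of them higher, and 6.63% of all tested peaks there were called. The split of the latter by direction was not counted.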
